A study of Mus musculus with 4 samples.

Results

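The enzymes described here build cholesterol from acetyl units: Hmgcs1, Idi1, Fdps, Fdft1, Sqle, Cyp51, Tm7sf2 and Nsdhl. They were chosen by gene symbol: every probe set of the array whose annotation gave 1 symbol, and that symbol among these 8, was taken, which gave 14 of 12488 probe sets. All 8 are enzymes of synthesis, and genes of cholesterol uptake are given further on from a separate list. Ventricular RNA of mice at 6 months of age was hybridised to Affymetrix oligonucleotide arrays, 1 array per sample. The 2 non-transgenic samples served as controls for 2 samples from mice carrying a transgene for serum response factor (SRF), expressed at a moderate level and in heart alone. This transcription factor of muscle and growth-response genes binds the CArG box. The promoter of the transgene, the strain, the number of founder lines and any pooling of animals are unknown from the labels. Nothing there states that both samples of a group were taken from different animals, and the p values then reflect only sample-to-sample spread, which could be technical. The genotype labels were not checked against the level of Srf, which is not used here.

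Cholesterol synthesis starts in the cytosol, where Hmgcs1 makes HMG-CoA, which is reduced to mevalonate and turned into isoprenoid units and then farnesyl diphosphate. Farnesyl diphosphate also supplies prenyl groups for proteins, ubiquinone and dolichol, and Fdft1 commits it to sterols. Most genes of the pathway are switched on together by SREBP transcription factors when sterol in the endoplasmic reticulum runs low, through sterol regulatory elements that work with nearby NF-Y and Sp1 sites. Heart muscle makes some cholesterol of its own and also takes it up from lipoproteins, while liver makes large amounts.

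Fdft1 and Tm7sf2 were lower in transgenic ventricle, and the other tested enzymes did not pass the test. Fdft1 had a mean signal of 294 ± 13.1 without and 133 ± 1.34 with the transgene (± SD, 2 arrays each). For Tm7sf2, 1 of 2 probe sets passed, with 75.0 ± 6.93 against 18.9 ± 4.95. Of the 14 probe sets, 10 (6 genes) were bright enough to be tested, 2 of these were called lower and 0 higher in limma (0 higher also at an unadjusted p below 0.05). Over all 7453 probe sets tested, 7.93% were called, 3.86% as lower and 4.07% as higher (303 higher and 288 lower). After centring each array on its median these counts were 397 and 197. Because a probe set can pass the filter through the group where it is high, the count over tested probe sets describes them and is no test of the whole set.

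The start-site regions of the sterol reductase Tm7sf2, which fell, and of Hmgcs1, at the head of the pathway, which did not pass, are shown. They were picked because they differ in letter matches to the core of a sterol regulatory element. Both are RefSeq sequences of GRCm38.p6, 5′ to 3′ in the direction of the gene, from 250 bases before to 50 bases after the start site. Capitals mark every match, on either strand, to the core of a sterol regulatory element (CACNCCAC), to the NF-Y box (CCAAT) and to the GC box bound by Sp1 (GGGCGG); matches did not overlap one another. Tm7sf2 lies on the minus strand at chr19:6067801-6068100 and Hmgcs1 on the plus strand at chr13:119690101-119690400.
Tm7sf2: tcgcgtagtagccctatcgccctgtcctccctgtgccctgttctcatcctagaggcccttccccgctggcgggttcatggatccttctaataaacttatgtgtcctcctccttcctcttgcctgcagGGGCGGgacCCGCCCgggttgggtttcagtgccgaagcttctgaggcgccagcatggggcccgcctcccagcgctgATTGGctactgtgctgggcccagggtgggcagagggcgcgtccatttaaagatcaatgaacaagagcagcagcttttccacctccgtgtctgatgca
Hmgcs1: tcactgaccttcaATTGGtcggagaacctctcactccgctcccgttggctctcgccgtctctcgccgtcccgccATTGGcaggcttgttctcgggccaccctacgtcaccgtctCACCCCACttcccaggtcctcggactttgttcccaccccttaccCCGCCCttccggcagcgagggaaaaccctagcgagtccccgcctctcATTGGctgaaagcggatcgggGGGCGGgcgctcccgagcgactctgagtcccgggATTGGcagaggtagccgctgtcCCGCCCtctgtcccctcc

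RefSeq start-site sequences were matched for 5 of the 8 genes: Hmgcs1, Idi1, Cyp51, Tm7sf2 and Nsdhl. The NF-Y box was present in all 5 of them, against 37.4% of 32851 windows of the same length, and the GC box in all 5, against 35.7%. The sterol regulatory core was found in 1 of the 5, that of Hmgcs1, with its first base at position -136 from the start site, and in 6.24% of all windows. The CArG box was found in 0 of the 5 and in 1.63% of all windows. In the Tm7sf2 window the NF-Y match began at -47 and the GC boxes at -123 and -114. The window of Nsdhl, which did not pass the test, also held no match to the sterol regulatory core. Fdft1 had no matched window. Only these exact letters were searched, so a window without a match can still hold an element spelled otherwise. These letter matches describe the windows only, and a link between them and the changes was not tested.

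Of 2 early enzymes, Hmgcs1 did not pass the test and Idi1 was not tested. Hmgcs1, which condenses acetoacetyl-CoA with acetyl-CoA, had non-transgenic signals of 50.1 and 69.2 and transgenic signals of 63.0 and 68.2. The groups overlapped, and the log2 change was 0.13 ± 0.22 (moderated SE), with a 95% interval from -0.39 to 0.65. Idi1, the isomerase that makes the second isoprenoid unit, was dim, at 19.8 and 12.2 against 16.3 and 23.0, and was below the filter. Its 4 values overlap, and no test was made.

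Fdps, which joins isoprenoid units into farnesyl diphosphate, was measured by 4 probe sets that did not move alike. The probe set 99098_at gave 216.5 and 241.5 in non-transgenic, then 231.1 and 224.6 in transgenic samples. These signals overlap closely, and the log2 change of -0.01 ± 0.13 had a 95% interval from -0.31 to 0.30. The probe set 160424_f_at gave 233.3 and 270.0 against 159.0 and 218.0. Both transgenic arrays were lower there, transgenic replicate 1 most, but the log2 change of -0.41 ± 0.18 did not pass (limma, Benjamini-Hochberg adjusted p = 0.217). The suffix f marks a probe set that can bind several related sequences, so its signal may not come from Fdps alone. Below the filter, 162281_at read 34.4 and 38.6 against 21.7 and 17.9, lower on both transgenic arrays, while 162217_r_at read 12.8 at most and overlapped.

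Fdft1, squalene synthase, joins 2 farnesyl diphosphate molecules and is the first enzyme whose product can only become sterol. Non-transgenic signals were 284.4 and 302.9, and transgenic signals 131.9 and 133.8. The lowest non-transgenic array was thus above the highest transgenic one by more than the difference within either group. Fdft1 fell by 1.09 ± 0.13 on the log2 scale, with a 95% interval from -1.40 to -0.78, which is 2.13-fold (limma, Benjamini-Hochberg adjusted p = 0.00532). The probe set was brighter than 79.1% of all probe sets. In each of the 13 other settings tried, which include leaving out each array, the change lay between -1.14 and -0.98 and the Benjamini-Hochberg adjusted p of limma between 0.00225 and 0.0365.

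Next in order, Sqle adds oxygen to squalene and is a controlled step of the pathway. It read 54.1 and 48.3 against 43.6 and 52.1. The groups overlapped, with a log2 change of -0.08 ± 0.22 and a 95% interval from -0.60 to 0.43. An equal fall to that of Fdft1 lies outside this interval. Cyp51, which removes the 14-alpha methyl group of lanosterol, was below the filter at 27.2 and 23.9 against 28.1 and 25.6, and its 4 values overlapped.

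**Figure D1:**
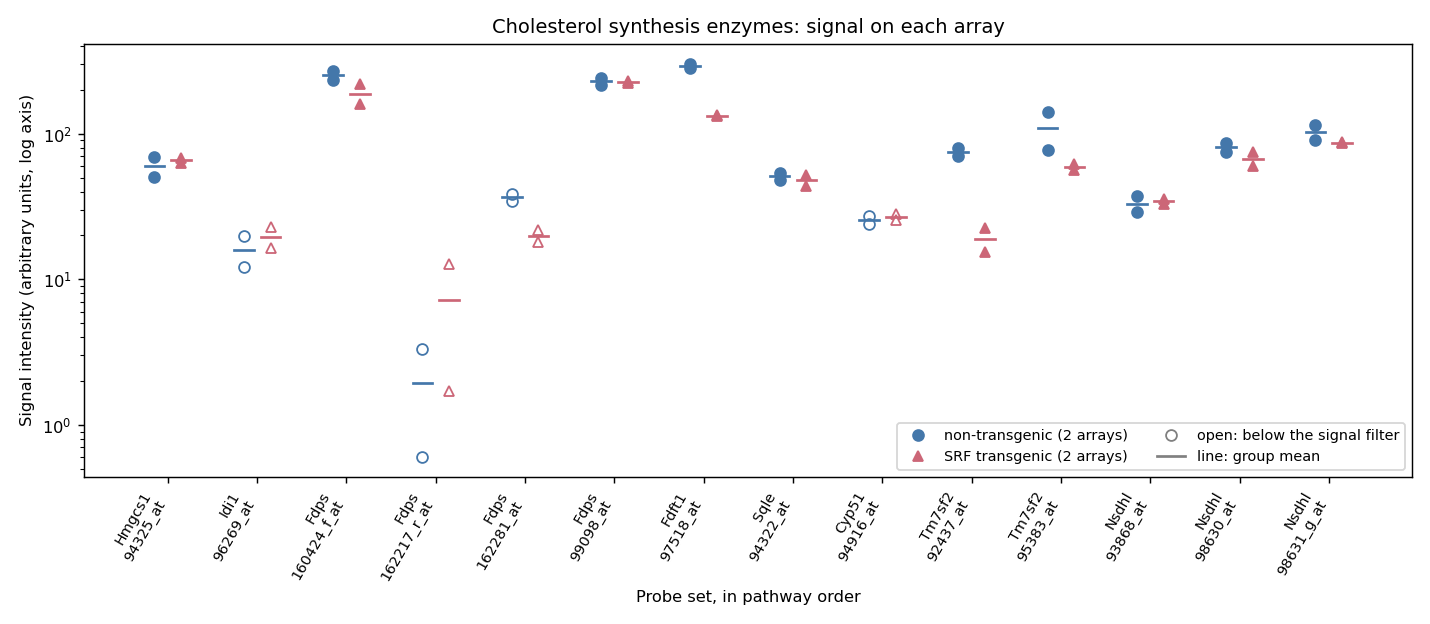
Signal intensity of each of the 14 probe sets (log axis, arbitrary units) on the 2 non-transgenic arrays (circles) and the 2 SRF transgenic arrays (triangles), in pathway order, with the group mean as a line and open symbols for the 4 probe sets below the filter. Fdft1 drops from 294 to 133 and Tm7sf2 92437_at from 75.0 to 18.9, while Hmgcs1, Sqle and Fdps 99098_at overlap; levels of different probe sets are not comparable.

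Tm7sf2 reduces the C14 double bond that Cyp51 leaves behind. Its probe set 92437_at read 79.9 and 70.1 in non-transgenic samples but 15.4 and 22.4 in transgenic ones. The groups were far apart. The log2 change was -1.60 ± 0.25 (limma, Benjamini-Hochberg adjusted p = 0.0145). On the log2(signal + 9) scale this is a 3.03-fold difference, and the plain ratio of the mean signals was 3.97. The transgenic signals lie under the level that the filter corresponds to (30.0), so the probe set was tested because of its signal in the non-transgenic group. Without any filter the call held by little (limma, Benjamini-Hochberg adjusted p = 0.0483). Across the 12 other settings in which it was tested the Benjamini-Hochberg adjusted p of limma reached at most 0.0497, in the fit that left out non-transgenic replicate 1.

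The other Tm7sf2 probe set, 95383_at, read 77.7 and 140.9 against 61.5 and 56.5. Both transgenic arrays were again lower, but the non-transgenic arrays differed from each other by more than replicate 1 differed from the transgenic arrays. Its log2 change of -0.75 ± 0.27 did not pass (limma, Benjamini-Hochberg adjusted p = 0.156); without non-transgenic replicate 1 it was -1.14 and passed (limma, Benjamini-Hochberg adjusted p = 0.0342), and without non-transgenic replicate 2 it was -0.35. Both probe sets of Tm7sf2 thus had a negative log2 change, of which 1 was called, and the difference between their changes was not tested.

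Nsdhl, a dehydrogenase that takes part in removing the C4 methyl groups, did not pass the test with any of its 3 probe sets. The brightest, 98631_g_at, read 90.4 and 114.0 against 85.8 and 87.7, a log2 change of -0.21 ± 0.18. The probe set 98630_at gave 74.3 and 86.7 against 75.1 and 59.7 (-0.23 ± 0.20), and 93868_at gave 37.2 and 28.9 against 35.7 and 32.8 (0.05 ± 0.26). The groups stood apart in the first of these and overlapped in the other two, and the widest of the 3 intervals ran from -0.56 to 0.65.

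**Figure D2:**
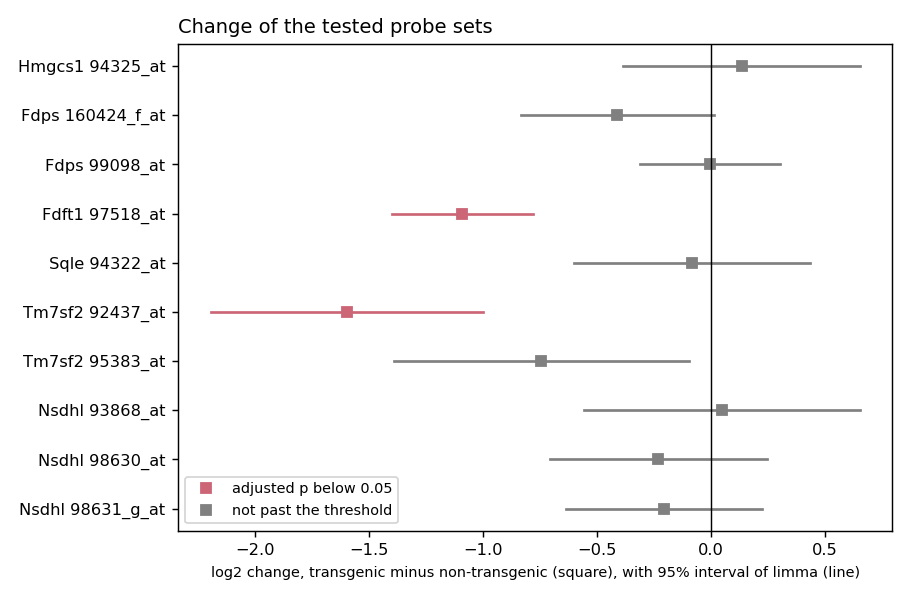
The log2 change of the 10 tested probe sets, transgenic minus non-transgenic (squares), with limma's 95% interval (lines), in pathway order. Fdft1 at -1.09 and Tm7sf2 92437_at at -1.60 passed the threshold, Tm7sf2 95383_at had an unadjusted interval below 0 but did not pass after adjustment, and the other 7 intervals include 0.

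In 5 of the 10 tested probe sets both transgenic arrays lay below both non-transgenic arrays (28.1% over all tested), and in 0 both lay above (27.8% over all tested). The median log2 change of the 10 was -0.22, against -0.01 over all probe sets tested. Of the 10, 8 had a negative change, as had 51.3% of all tested. The 10 belong to 6 genes, so probe sets of the same gene are not separate members. Among the 8, Fdps 99098_at (-0.01) and Sqle (-0.08) were near 0 and changed sign in other settings. The 2 called changes belong to enzymes on either side of Sqle, which did not pass, and Cyp51, which was not tested. Lss, the enzyme between Sqle and Cyp51, was below the filter at 14.6 and 25.4 against 10.8 and 6.0. It was lower on both transgenic arrays but not tested. Whether neighbouring enzymes fell together was therefore not tested.

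Over 4 lists of other cholesterol genes (synthesis, uptake, sensing and efflux), 25 of 31 measured genes were tested, of which 1 rose, 1 fell and 23 did not pass, beside 7.93% of all probe sets called. Of 10 measured genes in the list of other synthesis enzymes, 6 were tested and 0 rose or fell in limma (0 also at an unadjusted p below 0.05), with a median log2 change of -0.01. Lbr, the lamin B receptor, carries the same sterol reductase activity as Tm7sf2 and is named here for that reason, after its values were seen. It read 128.3 and 122.7 against 145.1 and 112.8, with a log2 change of 0.03 ± 0.17 and a 95% interval from -0.38 to 0.44, which does not reach the fall of either Tm7sf2 probe set; the difference between the genes was not itself tested. The early enzymes Mvk, mevalonate kinase (-0.14 ± 0.27), and Mvd, which makes isopentenyl diphosphate (-0.36 ± 0.28), did not pass, nor did Dhcr7, the last reductase (0.05 ± 0.25). Ggps1, which leads from farnesyl diphosphate to protein prenylation, had 1 probe set at -0.36 ± 0.22 and another at 0.41 ± 0.28.

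**Figure D3:**
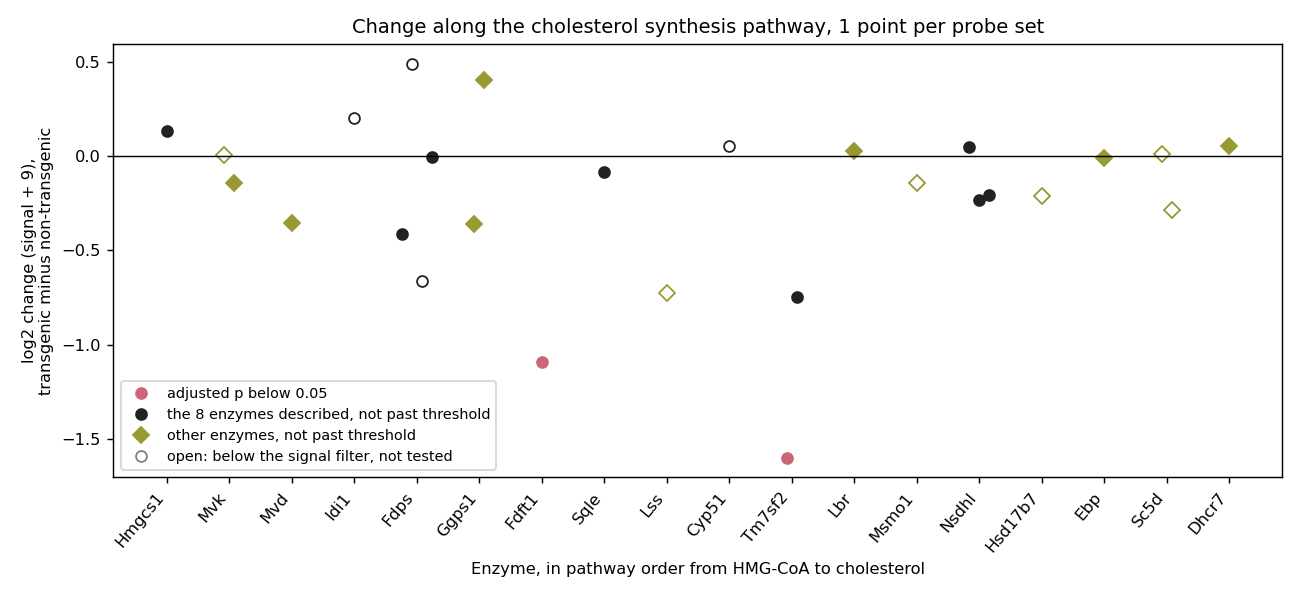
The log2 change of every measured enzyme of cholesterol synthesis in pathway order, 1 point per probe set (circles for the 8 enzymes described, diamonds for others, open symbols below the filter). Fdft1 at -1.09 and Tm7sf2 at -1.60 lie lowest, and Lbr, with the same reductase activity as Tm7sf2, lies at 0.03.

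Most tested genes of uptake and intracellular trafficking did not pass the test. Of 9 genes tested, 1 rose, 1 fell and 7 did not pass, beside 7.93% of all probe sets called. Their median log2 change was -0.02. Lrp1, an endocytic receptor of lipoprotein remnants, rose from 474.5 and 542.2 to 761.9 and 784.1, a log2 change of 0.60 ± 0.11 (limma, Benjamini-Hochberg adjusted p = 0.0212). Npc1, which exports cholesterol from lysosomes, fell from 657.5 and 616.5 to 418.6 and 387.3, a log2 change of -0.65 ± 0.11 (limma, Benjamini-Hochberg adjusted p = 0.0161). In both genes all transgenic signals lay on one side of all non-transgenic ones. The call of Lrp1 ended without non-transgenic replicate 1, transgenic replicate 1 or transgenic replicate 2 (limma, Benjamini-Hochberg adjusted p = 0.0617, 0.0596 and 0.0652) and that of Npc1 in the fits without non-transgenic replicate 1 (0.0536) and without transgenic replicate 2 (0.0514). Both ended with eBayes run without a trend (0.109 and 0.0891). The lysosomal lipase Lipa (0.73 ± 0.19), the fatty acid and lipoprotein receptor Cd36 (-0.59 ± 0.17), the sterol carrier Stard3 (-0.36 ± 0.12) and the lipoprotein receptor Vldlr (-0.59 ± 0.24 and -0.03 ± 0.22 with its 2 probe sets) did not pass.

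Genes that sense sterol or act on its export did not pass the test. Over all probe sets tested 7.93% were called, so 0 calls in lists this short is near that share. Of 5 tested genes of sterol sensing 0 rose or fell in limma (0 higher and 1 lower at an unadjusted p below 0.05), with a median log2 change of -0.12. Srebf1, which encodes SREBP-1, read 475.8 and 447.3 against 391.3 and 420.2, a log2 change of -0.18 ± 0.11. Its groups did not overlap, but the change did not pass (limma, Benjamini-Hochberg adjusted p = 0.360). The protease Mbtps1, which releases SREBP, changed by 0.16 ± 0.13, and the receptor partners Rxrb and Rxra by -0.34 ± 0.14 and, over 2 probe sets, 0.26 ± 0.18 and -0.19 ± 0.26. Of 5 tested genes of efflux and storage 0 rose or fell in limma (0 higher and 1 lower at an unadjusted p below 0.05; median log2 change -0.11). The cholesterol exporters Abca1 (0.11 ± 0.18) and Abcg1 (0.20 ± 0.23), the lipase Lipe (-0.31 ± 0.14) and the esterifying enzyme Lcat (-0.27 ± 0.29 and -0.89 ± 0.30 with its 2 probe sets) were among them.

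Users of the same intermediates and of the same regulators did not pass either. Here too 0 calls in a short list is near the share over all probe sets tested, 7.93%. Of 7 tested genes that use prenyl groups 0 rose or fell in limma (0 higher and 1 lower at an unadjusted p below 0.05; median log2 change -0.07). Coq7, a hydroxylase of ubiquinone synthesis, came nearest, with 654.3 and 538.0 against 423.3 and 390.2 and a Benjamini-Hochberg adjusted p of 0.0513 in limma. The methyltransferase Coq3 of the same pathway changed by -0.23 ± 0.13, and the farnesyltransferase subunits Fnta and Fntb by -0.23 ± 0.10 and 0.64 ± 0.43. Of 9 tested genes of fatty acid synthesis that SREBP also drives 0 rose or fell in limma (1 higher and 1 lower at an unadjusted p below 0.05; median log2 change -0.05). Scd1, the stearoyl-CoA desaturase, had -0.45 ± 0.31 and -0.67 ± 0.29 with its 2 brighter probe sets, the citrate carrier Slc25a1 had -0.50 ± 0.17 and 0.01 ± 0.15, Fads1 had -0.28 ± 0.13 and Thrsp, a lipogenic nuclear protein, 0.40 ± 0.15.

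Markers of other cell types moved with the groups, beside the fall of Fdft1 and Tm7sf2. The heart identity of the samples was plain. The 9 measured cardiomyocyte markers summed to between 92486 and 95682 on the non-transgenic and between 74437 and 76643 on the transgenic arrays. Of these, 5 fell and 0 rose in limma, but this depended on the normalization. After quantile normalization Tnnt2, Myh6, Tnni3 and Myl2 no longer passed, with log2 changes of -0.00386, -0.085, -0.18 and 0.056. In such bulk samples, fewer cells of a type and less RNA per cell cannot be told apart. The summed signal of 13 measured hepatocyte markers was 2860 and 5420 in non-transgenic ventricle but 267 and 298 in transgenic ventricle. Of 8 tested, 6 fell and 0 rose in limma, Alb among them from 855.5 and 1737.5 to 50.3 and 35.7. Markers of adipocytes, of which 8 were measured, summed to 908 and 1110 against 563 and 601, and 2 of 5 tested, Adipoq and Car3, fell. No marker of these lists was listed at 0. Macrophage markers summed to 2517 and 2811 against 4144 and 4198, fibroblast markers to 7809 and 7761 against 12494 and 12090, and atrial muscle markers to 520 and 686 against 1233 and 1085. Of the 2 atrial genes tested, Myl7 rose.

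The hepatocyte markers also differed between the non-transgenic arrays. Signal on non-transgenic replicate 2 divided by that on replicate 1 had a median of 1.98 over the 9 tested hepatocyte probe sets, with a range from 1.15 to 2.35. The same ratio was 1.07 for Fdft1, 0.877 for Tm7sf2 92437_at, 1.81 for Tm7sf2 95383_at and 1.38 for Hmgcs1. As the median of the 10 tested probe sets of cholesterol synthesis it was 1.14. The lowest hepatocyte values were 1.15 for Ahsg and 1.17 for Ttr. Each ratio compares 1 array with 1 other, so its place in or out of a range cannot tell the source of the RNA. Over the 5 tested adipocyte probe sets the ratio ran from 0.876 to 2.10. It was 1.36 for Adipoq and 1.25 for Car3, which fell. Lep, Cidea and Fabp4, which did not pass, had 0.876, 1.06 and 2.10. The part of hepatocyte, adipocyte, macrophage or fibroblast RNA in these results was not tested.

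**Figure D4:**
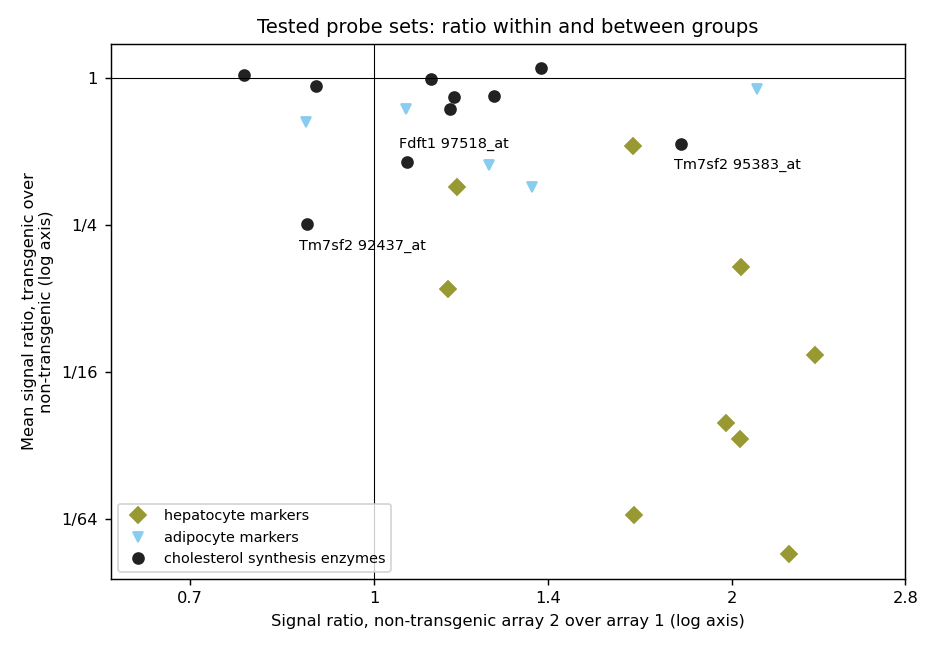
For each tested probe set, the signal on non-transgenic array 2 over array 1 (horizontal, log axis) against the mean transgenic over mean non-transgenic signal (vertical, log axis), for the cholesterol synthesis enzymes (circles), hepatocyte markers (diamonds) and adipocyte markers (triangles). Hepatocyte markers lie at 1.15 or more on the horizontal axis, Fdft1 at 1.07, Tm7sf2 92437_at at 0.877 and Tm7sf2 95383_at at 1.81. A ratio of 2 single arrays cannot tell the source of the RNA.

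The calls of Fdft1 and Tm7sf2 were followed through every setting of the analysis. The change of Tm7sf2 92437_at ran from -1.95 with a pseudocount of 1 to -1.07 with a pseudocount of 32, since its transgenic signal is close to the values added. When the filter removed the lowest 60%, neither Tm7sf2 probe set was tested and 1 enzyme, Fdft1, was called. In all other settings except 1 the number called lower was 2. The exception was the fit without non-transgenic replicate 1, in which 95383_at was called as well.

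**Figure D5:**
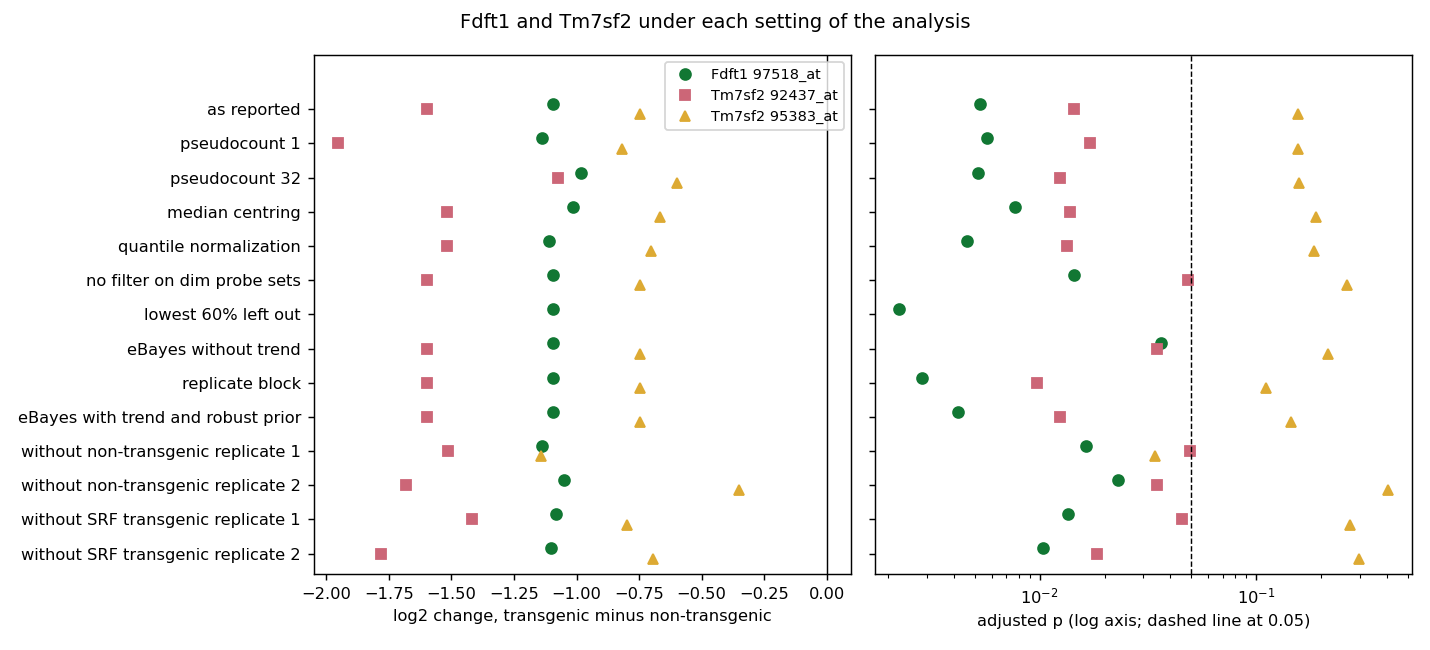
The log2 change (left) and the Benjamini-Hochberg adjusted p of limma (right, log axis, dashed line at 0.05) of Fdft1 and both Tm7sf2 probe sets, under the reported setting and each of 13 others. Fdft1 stays between -1.14 and -0.98, Tm7sf2 92437_at spreads from -1.95 to -1.07 and stays below the threshold wherever it was tested, and 95383_at passes in 1 setting.

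The genes whose profile over the 4 arrays lay nearest to the mean profile of the 6 tested enzymes (1 probe set each, the brightest) were Adsl, Gm1673, Krt6b, Pptc7 and Clpp, at Euclidean distances from 0.0114 to 0.0547 on the log2 scale. Adsl, adenylosuccinate lyase of purine synthesis, read 258.0 and 314.5 against 220.0 and 225.5. None of the 5 passed the test, and the mean profile they resemble was 0.03 and 0.30 above its own average for non-transgenic replicates 1 and 2 and 0.19 and 0.15 below it for the transgenic arrays. For Tm7sf2 the brightest probe set was 95383_at (log2 change -0.75), which was not called. Fdft1 in this mean changed by -1.09 and Nsdhl 98631_g_at by -0.21. Hmgcs1, Sqle and Fdps 99098_at changed by 0.13, -0.08 and -0.01, so the mean does not describe each enzyme. The likeness of the 5 genes to the mean rests on 4 arrays alone.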

How the data were processed

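The deposited table gives a linear intensity for each probe set on each array (scale read from the values; RNA was biotin-labelled for Affymetrix arrays, per the labels). The arrays had been scaled to a like trimmed mean (150.1 each), and the signal software is not given in the sources used here. Scaling to a common mean hides changes shared by most RNA. Array medians ran from 49.0 to 53.9. Symbols came from the platform annotation: 10833 probe sets had 1 symbol, 396 several and 1193 none listed; checked through gene numbers against RefSeq, 0 symbols changed.

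Signals were turned into log2(signal + 9), 9 being the 20th percentile. The 66 control probe sets and the lowest 40% by mean log2 signal over all arrays were left out, which kept 7453. The test was two-sided in limma 3.58.1 (R 4.3.3), with lmFit, eBayes with a variance trend and Benjamini-Hochberg adjustment over all 7453, and called probe sets below 0.05. The variance prior had 5.05 degrees of freedom beside 2 residual ones. An exact permutation test of 2 against 2 arrays cannot give a two-sided p below 0.333, so none is reported. The fit was also run on simulated arrays with normal noise whose spread followed the mean signal alone. That run checked the code and is no test of the calls given here.

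The members, gene lists and settings were chosen with earlier results of these data known. Named genes were all members, each list's called genes and up to 4 more with the smallest p, and the 5 nearest profiles. Alternatives were other pseudocounts, centring, quantile normalization, other filters, variance models, a looser threshold, a replicate block and leaving out each array.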

Additional observations from a re-analysis of the deposited data

How the results depend on the processing

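The counts over all probe sets moved with the settings. Against 303 higher and 288 lower, there were 172 and 157 with no filter, 44 and 34 with eBayes run without a trend, 477 and 484 at an adjusted p threshold of 0.1, and from 125 to 232 higher and from 158 to 191 lower when 1 array was left out, where the lone array of a group is assumed to vary like the others. Of the enzymes described, 2 probe sets were called lower, but 1 with the lowest 60% left out, since Tm7sf2 was not tested there, and from 2 to 3 when 1 array was left out (3 without non-transgenic replicate 1). Other cholesterol genes, with 1 higher and 1 lower, gave 2 higher with the lowest 60% left out, 0 and 0 without a trend, 2 and 2 at the threshold of 0.1, and from 0 to 1 higher and 0 to 2 lower without 1 array. Replicate numbers were not shown to pair the samples (correlation of deviations -0.06); with a replicate block 348 and 345 probe sets were called, and 2 and 2 of the other cholesterol genes.

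Of 124 refitted changes of tested probe sets, 115 kept their direction and side of the threshold, 1 newly passed and 8 changed sign, all of them of probe sets that were not called. These were Hmgcs1 (from -0.069 to 0.34 without 1 array), Fdps 99098_at (0.075 with median centring; from -0.081 to 0.071 without 1 array), Sqle (0.00178 with quantile normalization; from -0.19 to 0.023 without 1 array) and Nsdhl 93868_at (from -0.10 to 0.19 without 1 array). The cause was not tested. Of the 14 probe sets of these enzymes 4 were below the filter, those of Idi1 and Cyp51 among them, and 2 arrays per group limit the precision.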
